A study of Mus musculus with 9 samples.

Results

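Transcripts of 9 genes that mark neutrophils and monocytes were followed liver by liver through partial hepatectomy with and without SHP2 inhibition. They were chosen by gene name from the 43346 genes of the deposited count table, and all 9 were found there with reads in at least 1 library. Whole liver of male C57/BL6 (C57BL/6J) mice aged 12 weeks was profiled by RNA-Seq in 9 libraries, in 3 groups of 3. Vehicle-treated mice, which received saline, gave the resection specimens removed at hepatectomy (0 h, the baseline) and the liver remnants taken 40 h after 70% hepatectomy. NSC-treated mice gave remnants at the same 40 h. NSC-87877 (NSC), an SHP2 inhibitor that also inhibits the related phosphatase SHP1, was injected i.p. at 7.5 mg/kg per dose, 15 mg/kg per day, from 12 h before surgery by the sample records. The study's methods place the first dose a day before surgery. All mice were wild type and underwent the same operation. No baseline of NSC-treated mice was analysed here, and the 3 vehicle specimens served as the reference for both groups of remnants. In those comparisons time, surgery and the piece of liver sampled cannot be told apart, and with NSC the drug is added to them.

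Neutrophils are short-lived granulocytes that leave the bone marrow in response to granulocyte colony-stimulating factor and enter injured tissue along CXC chemokine gradients. Their granule proteins are transcribed in sequence during maturation in the marrow, first those of primary granules and then those of secondary and tertiary granules, and circulating neutrophils carry little granule mRNA while keeping abundant calprotectin mRNA. Classical monocytes, marked by Ly6C and CCR2 in the mouse, leave the marrow in response to CCL2 and can become macrophages in the liver, where the resident macrophages are the Kupffer cells.

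The 9 markers fell into 3 sets by role. *S100a8* and *S100a9* encode the 2 subunits of calprotectin, the main cytosolic protein of neutrophils, *Csf3r* encodes the receptor for granulocyte colony-stimulating factor, and *Retnlg* encodes resistin-like gamma, a secreted product of mature neutrophils. *Ngp* (neutrophilic granule protein), *Camp* (the cathelicidin precursor) and *Ltf* (lactoferrin) are products of secondary granules. *Lyz2*, lysozyme M, is made by neutrophils, monocytes and macrophages including Kupffer cells, and *Ly6c2* encodes a surface antigen of classical monocytes. Positions are given in GRCm38, as deposited. *S100a8* (ENSMUSG00000056054, chr3:90669071-90670034) and *S100a9* (ENSMUSG00000056071, chr3:90692632-90695721) lie 23 kb apart. The 3 secondary granule genes share chromosome 9, with *Camp* (ENSMUSG00000038357) at chr9:109847377-109849456, *Ngp* (ENSMUSG00000032484) at chr9:110419808-110423010 and *Ltf* (ENSMUSG00000032496) at chr9:111019292-111042766. The others are *Csf3r* (ENSMUSG00000028859, chr4:126024550-126044440), *Retnlg* (ENSMUSG00000022651, chr16:48872608-48874498), *Lyz2* (ENSMUSG00000069516, chr10:117277334-117282274) and *Ly6c2* (ENSMUSG00000022584, chr15:75108158-75111970). All 9 are protein coding.

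Levels were low for most of these transcripts. Library totals ran from 23997363 to 42887589 counts, so a floor of 3 counts stood at 0.07 to 0.125 CPM by those totals alone. All other CPM values are counts scaled to a common library size with edgeR's TMM factors. Levels of different genes are compared only as FPKM, which also divides by gene length. The median log2 fold change of all 15024 genes tested lay between 0.01 and 0.02 in each of the 3 comparisons. A gene was called in edgeR's quasi-likelihood test of all 9 libraries when its adjusted p (Benjamini-Hochberg) was under 0.05 and its log2 fold change was past 1.5 in either direction. In whole liver, fewer cells of a type and less RNA per cell cannot be told apart.

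The calprotectin transcripts were higher in all 6 remnants than in all 3 baseline specimens, and *S100a8* passed the thresholds with NSC. *S100a8* had 1.55, 0.153 and 0.726 CPM in baseline replicates 1 to 3, 2.00, 3.55 and 1.92 CPM in the vehicle remnants, and 5.16, 4.72 and 2.47 CPM in the NSC remnants. The vehicle and NSC remnants overlapped, because NSC replicate 3 lay below vehicle replicate 2. Against a baseline mean of 0.809 ± 0.701 CPM (SD, n = 3), it rose to 4.12 ± 1.45 CPM (SD, n = 3) with NSC, a log2 fold change of 2.35 (SE 0.61, adjusted p = 0.0135, edgeR quasi-likelihood test). In vehicle-treated mice it stood at 2.49 ± 0.919 CPM (SD, n = 3), with a log2 fold change of 1.63 (SE 0.60, adjusted p = 0.0768 by the same edgeR test) that did not pass. The NSC call rested on few baseline counts, namely 49, 5 and 22, and without baseline replicate 3 the log2 fold change of 2.28 had an adjusted p of 0.0562 in edgeR. Without baseline replicate 1 it was 3.23.

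*S100a9* had 4.49, 1.25 and 2.61 CPM at baseline, 5.01, 8.78 and 4.65 CPM in the vehicle remnants, and 8.61, 6.96 and 6.54 CPM in the NSC remnants. Here too no remnant lay below a baseline specimen, and the remnants of the 2 treatments overlapped. With NSC it rose by a log2 fold change of 1.41 (SE 0.40, adjusted p = 0.0192, edgeR), which passed the adjusted p but lay under the fold threshold. With vehicle the value was 1.15 (SE 0.40, adjusted p = 0.0589, edgeR). Baseline replicate 1 was the highest of the baseline specimens for both subunits, and without it both passed both thresholds in vehicle-treated mice, with log2 fold changes of 2.51 for *S100a8* and 1.67 for *S100a9* (adjusted p = 0.0205 and 0.0163, edgeR). Other single libraries weakened the rise. Without baseline replicate 2 the vehicle values were 1.13 for *S100a8* and 0.80 for *S100a9* (adjusted p = 0.103 and 0.118, edgeR). Without vehicle replicate 2 that of *S100a9* was also 0.80 (adjusted p = 0.203, edgeR). With NSC, *S100a9* had an adjusted p of 0.0676 without baseline replicate 3 and 0.0552 without NSC replicate 1 (edgeR).

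*Retnlg* rose in both groups and had the largest fold changes of the 6 tested markers. It had 0.442, 0.122 and 0.132 CPM at baseline, against 1.25, 2.51 and 0.923 CPM with vehicle and 2.85, 1.66 and 1.45 CPM with NSC. Every remnant was above every baseline specimen. The log2 fold change was 2.74 (SE 0.57, adjusted p = 0.00489, edgeR) with vehicle and 3.08 (SE 0.57, adjusted p = 0.00178, edgeR) with NSC. It was called whichever library was left out, with log2 fold changes of 2.22 to 3.59 with vehicle and 2.73 to 3.93 with NSC.

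*Csf3r* did not move with the other neutrophil transcripts. It had 4.45, 1.74 and 3.17 CPM at baseline, 3.08, 5.18 and 1.73 CPM with vehicle, and 4.47, 1.83 and 2.39 CPM with NSC. The 3 groups overlapped, and the spread within each group was larger than any difference between groups. Its log2 fold changes against baseline were 0.10 (SE 0.46, adjusted p = 0.896, edgeR) and -0.10 (SE 0.47, adjusted p = 0.886, edgeR), and both changed sign when single libraries were left out.

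**Figure D1:**
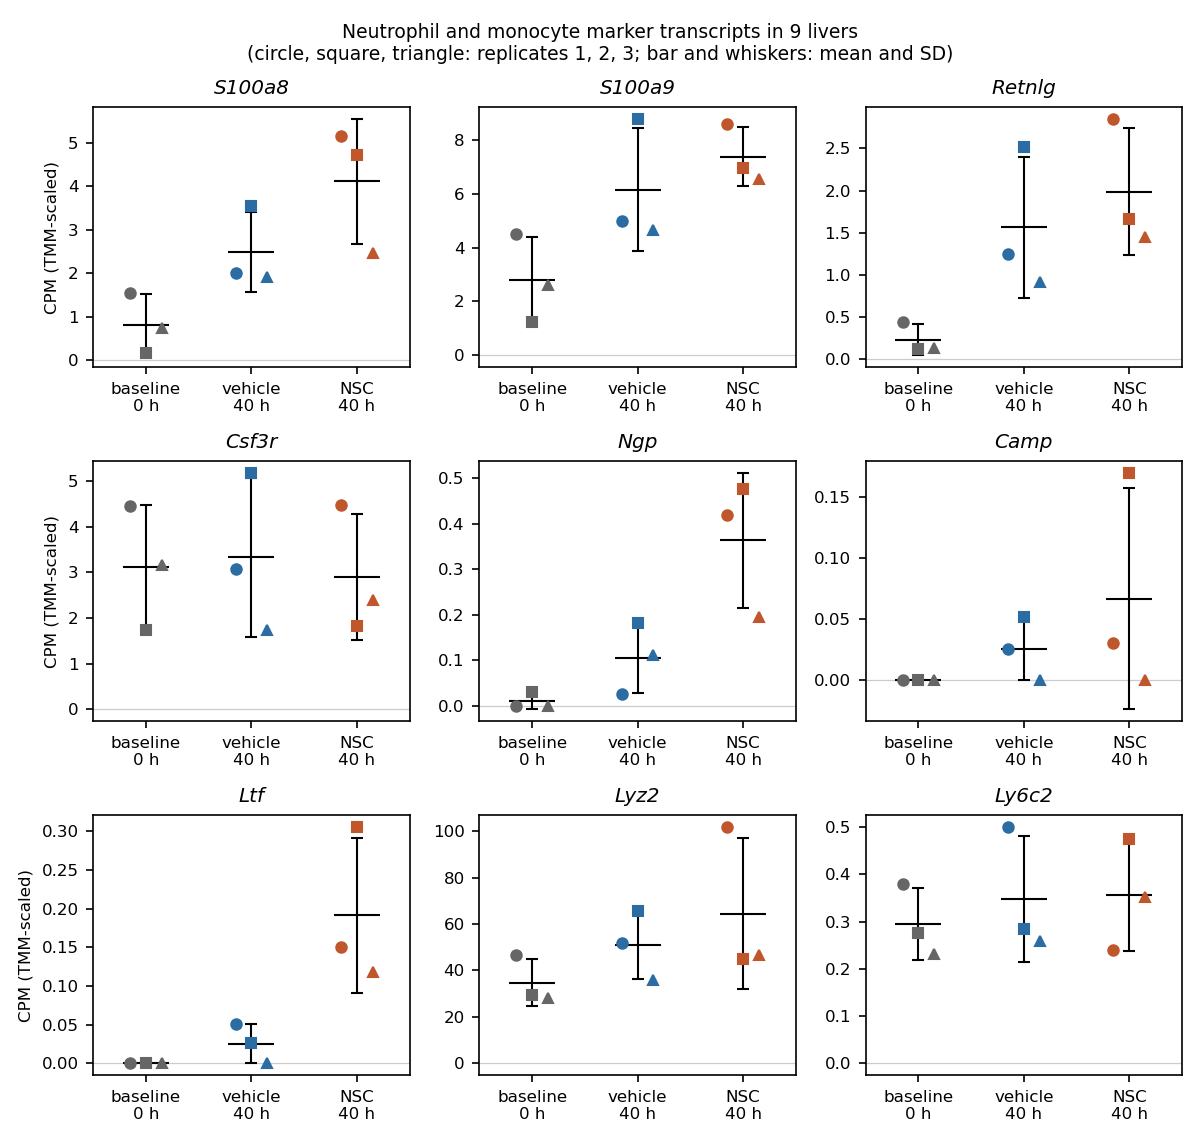
TMM-scaled CPM of each marker transcript in each liver, on linear axes that differ between panels, with baseline, vehicle and NSC livers from left to right. Circles, squares and triangles are replicates 1, 2 and 3, and bars with whiskers are the mean and SD (n = 3). *S100a8*, *S100a9* and *Retnlg* lie higher in all 6 remnants than at baseline, *Csf3r* and *Ly6c2* overlap in all groups, and the single high *Lyz2* value is NSC replicate 1 at 102 CPM.

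Of the 6 markers that passed the expression filter, 1 was called higher with vehicle (*Retnlg*) and 2 with NSC (*S100a8* and *Retnlg*), against 5.03% and 5.38% of all genes tested that were called higher. Not overlapping and higher than baseline were 3 of 6 in each group, against 24.2% of all genes with vehicle and 24% with NSC. With an adjusted p under 0.05 and no fold threshold, 1 of 6 rose with vehicle and 3 of 6 with NSC, beside 12.7% and 18.2% of all genes. *S100a8*, with 49, 5 and 22 baseline counts, and *Retnlg*, with 14, 4 and 4, passed the filter through the remnants, where they were high. The counts above thus depend in part on the filter. With at least 10 counts required in every library neither was tested and 0 markers were called. The other 3 markers, *Ngp*, *Camp* and *Ltf*, were below the filter and are described by their counts.

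The promoters of the markers that rose together, and of the granule gene with the most counts, are shown because their start sites can be compared letter by letter. Each window is the 250 bases before the RefSeq start site, read 5′ to 3′ on the strand of the gene from the RefSeq table for GRCm38.p6. Capitals mark 3 motifs searched on both strands: GAGGAAG, a core of PU.1 sites, TTGCNNAA, a form of the C/EBP site, and, for the TATA box, TATAAA. None of the 3 overlap one another in these windows. A match on the other strand appears as its reverse complement, as for PU.1 in *S100a8*, C/EBP in *Retnlg* and the second C/EBP match in *Ngp*.
S100a8 chr3:90668821-90669070 (+): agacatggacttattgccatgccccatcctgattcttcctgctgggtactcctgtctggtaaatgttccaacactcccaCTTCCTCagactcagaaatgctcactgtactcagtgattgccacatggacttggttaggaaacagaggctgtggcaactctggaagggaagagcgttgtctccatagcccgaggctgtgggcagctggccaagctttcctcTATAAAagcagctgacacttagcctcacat
S100a9 chr3:90695722-90695971 (-): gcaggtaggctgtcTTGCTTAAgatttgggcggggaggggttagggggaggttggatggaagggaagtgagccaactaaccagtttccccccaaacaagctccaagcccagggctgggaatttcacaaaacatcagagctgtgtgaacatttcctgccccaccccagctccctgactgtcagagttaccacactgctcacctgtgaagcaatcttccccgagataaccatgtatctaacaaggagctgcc
Retnlg chr16:48872358-48872607 (+): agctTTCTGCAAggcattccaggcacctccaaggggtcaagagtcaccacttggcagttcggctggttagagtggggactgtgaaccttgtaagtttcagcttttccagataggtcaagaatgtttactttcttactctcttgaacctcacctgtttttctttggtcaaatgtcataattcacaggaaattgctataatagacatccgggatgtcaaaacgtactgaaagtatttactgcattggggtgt
Ngp chr9:110419558-110419807 (+): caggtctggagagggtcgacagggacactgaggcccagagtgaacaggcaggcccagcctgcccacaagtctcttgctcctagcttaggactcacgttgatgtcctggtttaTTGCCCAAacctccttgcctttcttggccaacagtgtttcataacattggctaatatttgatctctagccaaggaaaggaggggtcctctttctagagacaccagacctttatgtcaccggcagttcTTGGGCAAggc
The *S100a8* window held a PU.1 match from 171 to 165 bases before the start and a TATA box from 30 to 25 bases before it. *S100a9* held a C/EBP match from 236 to 229 bases before its start, *Retnlg* one from 246 to 239, and *Ngp* 2 matches, from 138 to 131 and from 11 to 4. All 9 markers were matched to the RefSeq table. The PU.1 letters were found in 3 of 9 (*S100a8*, *Csf3r* and *Ly6c2*) and in 10.6% of all 32851 promoters in the table. The C/EBP letters were found in 4 of 9 (*S100a9*, *Retnlg*, *Ngp* and *Ltf*) and in 9.56% of all promoters. The TATA box was found in *S100a8* alone among the 9 and in 12.4% of all promoters. PU.1 and C/EBP factors are known regulators of myeloid genes, and a match of letters describes the window only.

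The secondary granule transcripts were close to 0 at baseline, and *Ngp* and *Ltf* stood higher in CPM in each NSC remnant than in any vehicle remnant. *Ngp* had 0, 1 and 0 counts at baseline, 1, 7 and 3 with vehicle, and 14, 14 and 5 with NSC. In counts NSC replicate 3 (5) lay below vehicle replicate 2 (7). NSC replicate 3 is the shallowest library, and scaled to library size the values were 0.196 and 0.181 CPM, close to each other. Summed over 3 libraries, 33 counts with NSC stood against 1 at baseline, a ratio per library size of 35.4 (95% counting interval 5.92 to 1439), and against 11 with vehicle, a ratio of 3.59 (1.77 to 7.87). These exact intervals cover counting error only, not the spread between mice. The vehicle remnants had 9.86 times the baseline level (1.43 to 424), and their range overlapped the baseline range.

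*Ltf* had no count in the 3 baseline libraries, 2, 1 and 0 counts with vehicle, and 5, 9 and 3 with NSC. The 17 counts with NSC made it at least 6.08-fold higher than the floor of 3 counts over the baseline group, and 6.78 times (1.96 to 36.1) the level of the vehicle remnants, which had 3 counts in all. *Camp* had no count at baseline, 1, 2 and 0 with vehicle, and 1, 5 and 0 with NSC, so that 5 of its 6 NSC counts came from replicate 2. Its NSC level was at least 2.14-fold higher than the floor over the baseline group, and its ratio to vehicle of 2.39 had an interval of 0.511 to 14.8.

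When every gene with at least 1 count was fitted (24325 genes), *Ngp* and *Ltf* were called higher with NSC than at baseline (adjusted p = 0.00244 and 0.0125, edgeR), in a fit that called 3.44% of all genes higher. Their NSC ranges lay above the baseline ranges, as did those of 15.9% of these genes. In the direct comparison of NSC with vehicle neither passed, at adjusted p = 0.335 for *Ngp* and 0.316 for *Ltf* (edgeR, unadjusted p = 0.0365 and 0.0310), where 0.0247% of genes were called higher. Ranges that did not overlap and were higher with NSC than with vehicle were seen for these 2 of 9 markers and for 7.15% of the 24325 genes. Differences of *Camp* were not detectable at this depth.

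Between the treatments at 40 h, 0 of the 6 tested markers were called by edgeR, 0 had an unadjusted p under 0.05, 0 were called by DESeq2, and all 6 overlapped. In the same comparison 0.02% of all genes were called in either direction, 19.5% had an unadjusted p under 0.05 and 22.5% did not overlap. The log2 fold changes of NSC over vehicle were 0.72 (SE 0.56, adjusted p = 0.496, edgeR) for *S100a8*, 0.26 for *S100a9*, 0.34 for *Retnlg* and -0.20 for *Csf3r*. The last 3 had adjusted p-values of 0.743, 0.719 and 0.840 in edgeR. For *S100a8* the value stayed between 0.52 and 1.07 when each library was left out in turn, whereas for *Retnlg* it went to -0.02 without NSC replicate 1.

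**Figure D2:**
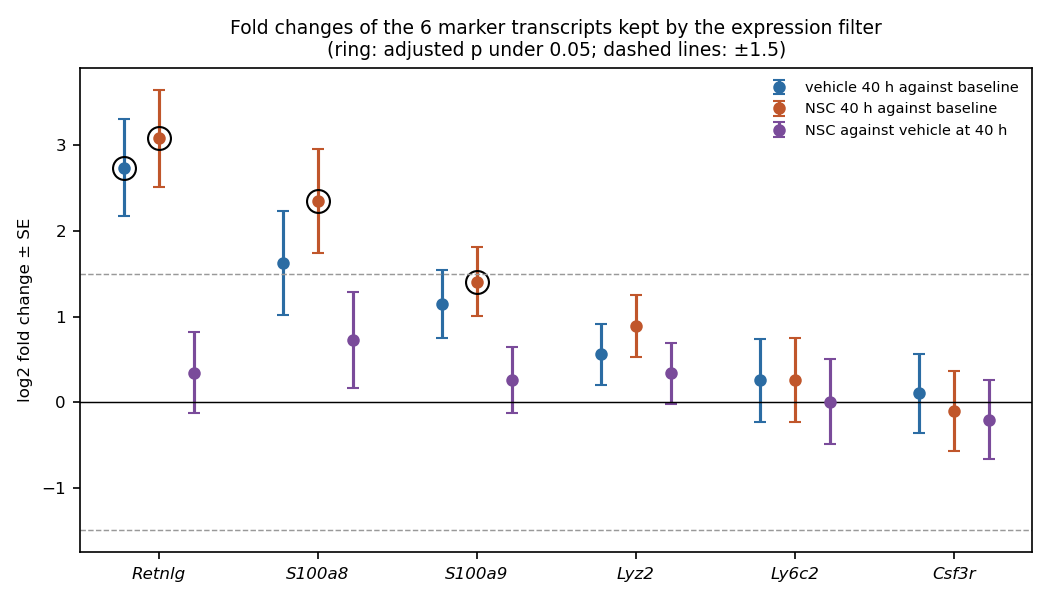
Log2 fold change with its SE (edgeR, 3 livers per group) of the 6 marker transcripts kept by the expression filter, in each of the 3 comparisons. Rings mark an adjusted p under 0.05 and dashed lines mark the fold threshold of 1.5 in either direction. *Retnlg* in both comparisons with baseline and *S100a8* with NSC lie past both, *S100a9* with NSC is ringed just under the line, and no value of NSC against vehicle is ringed.

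*Lyz2* was the most abundant marker and varied mainly through 1 liver. It had 46.6, 29.4 and 28.3 CPM at baseline, 51.8, 65.6 and 36.0 CPM with vehicle, and 102, 45.0 and 46.7 CPM with NSC. Vehicle replicate 3 and NSC replicate 2 lay below baseline replicate 1, so both remnant groups overlapped the baseline. The log2 fold change was 0.56 (SE 0.36, adjusted p = 0.300, edgeR) with vehicle and 0.89 (SE 0.36, adjusted p = 0.0868, edgeR) with NSC, and it was 0.40 with NSC when replicate 1 was left out. Of NSC over vehicle it was 0.34 (SE 0.36, adjusted p = 0.635, edgeR) and -0.16 without NSC replicate 1. Against baseline the NSC value had an adjusted p of 0.0272 in DESeq2 (log2 fold change 0.89). With a term for the replicate number in edgeR it was 0.85 (adjusted p = 0.0258), and both lay under the fold threshold.

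NSC replicate 1 was also the highest library for several macrophage and leukocyte transcripts. *Emr1*, which encodes the macrophage antigen F4/80, had 32.2 CPM there against 5.35 to 12.3 CPM in the other 8 livers, and *Ptprc*, the common leukocyte antigen CD45, had 13.6 CPM against at most 7.14 CPM in the others. The summed level of 8 transcripts common to leukocytes ran from 39.6 to 56.0 CPM at baseline, from 43.3 to 71.1 CPM with vehicle and from 53.3 to 99.1 CPM with NSC. That of 9 Kupffer cell transcripts ran from 474 to 489, from 349 to 503 and from 559 to 635 CPM in the same order, with 626 CPM in NSC replicate 1 and the highest value in NSC replicate 2. Their part in the *Lyz2* values was not tested. *Lyz1*, a near-identical copy of *Lyz2* with which reads could be shared, averaged 0.528 FPKM over the livers, and its split from *Lyz2* is uncertain.

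*Ly6c2* did not change in step with *Lyz2*. It had 0.379, 0.275 and 0.231 CPM at baseline, 0.501, 0.285 and 0.258 CPM with vehicle, and 0.240, 0.475 and 0.352 CPM with NSC, from 7 to 20 counts per library. All 3 groups overlapped. The log2 fold changes were 0.25 and 0.26 against baseline (SE 0.49 each, adjusted p = 0.749 and 0.715, edgeR) and 0.01 for NSC over vehicle (adjusted p = 0.997, edgeR). Counts this low leave wide errors, and the adjacent paralog family makes them uncertain, since *Ly6c1*, a near-identical copy expressed in endothelium, had 0.102 to 1.32 CPM and likewise passed no test.

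Per gene length, the order of the markers shifted between baseline and remnant. At baseline *Lyz2* stood first at 26.5 ± 7.68 FPKM (SD, n = 3), followed by *S100a9* at 5.13 ± 2.97, *S100a8* at 1.98 ± 1.71, *Csf3r* at 0.834 ± 0.360 and *Retnlg* at 0.367 ± 0.286 FPKM. From *S100a9* to *Retnlg* each overlapped its neighbour in range, whereas *Lyz2* lay clear above them and *Ly6c2*, at 0.104 ± 0.026 FPKM, clear below. In the vehicle remnants *Retnlg* (2.45 ± 1.15 FPKM) lay above *Csf3r* (0.886 ± 0.413 FPKM), with no overlap between them. With NSC the order was *Lyz2* (54.8 ± 29.5 FPKM), *S100a9* (15.0 ± 2.72), *S100a8* (11.2 ± 4.03), *Retnlg* (3.50 ± 1.45), *Csf3r* (0.863 ± 0.445) and *Ngp* (0.333 ± 0.133 FPKM). There *S100a9* and *S100a8* overlapped, and *Ngp* lay above *Ly6c2* (0.137 ± 0.040 FPKM), which it did not do at baseline or with vehicle. *Camp* and *Ltf* were last in all 3 groups, and at baseline both were listed at 0.

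Ratios of length-scaled levels within a liver ask whether 2 markers moved by the same amount. The log2 ratio of *Csf3r* to *S100a8* was -1.69, 0.18 and -1.10 at baseline, -2.59, -2.66 and -3.35 with vehicle, and -3.41, -4.56 and -3.25 with NSC. The baseline specimens did not overlap either remnant group, and the difference of means was -1.99 with vehicle and -2.87 with NSC (exact permutation test, 2-sided p = 0.1 for each, the smallest that 3 against 3 can give). The log2 ratio of *S100a9* to *S100a8* was 1.11, 2.50 and 1.41 at baseline, 0.90, 0.89 and 0.86 with vehicle, and 0.32, 0.15 and 0.99 with NSC. It fell by 0.79 with vehicle and by 1.19 with NSC on the log2 scale without overlap, again at the smallest exact permutation p of 0.1. In these livers the 2 calprotectin transcripts thus stood closer to equal levels in the remnants than at baseline. The size of the shift leaned on baseline replicate 2, which had 5 *S100a8* counts. Without it the differences were -0.38 with vehicle and -0.77 with NSC.

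Against *S100a8*, *Ngp* and *Ltf* stood higher in NSC than in vehicle remnants. The log2 ratio of *Ngp* to *S100a8* was -7.31, -5.76 and -5.47 with vehicle and -5.14, -4.83 and -5.09 with NSC, a difference of 1.16. That of *Ltf* to *S100a8* was -7.82, -9.32 and -9.52 with vehicle and -7.78, -6.68 and -6.99 with NSC, a difference of 1.74. Neither pair of groups overlapped (exact permutation p = 0.1 for each). For *Ltf* the replicates 1 of the 2 groups nearly met, on 2 counts with vehicle and 5 with NSC. Their separation thus rests on few counts and on the 0.5 added to each. For the third granule gene, the log2 ratio of *Camp* to *S100a8* was -6.36, -6.39 and -7.33 with vehicle and -7.46, -5.28 and -7.60 with NSC, a difference of -0.09 with overlap (exact permutation p = 0.9). Over the 18 ratio tests no adjusted p was below 0.3. The baseline ratios of the granule genes rest on 0 or 1 granule count per library, to which 0.5 was added, and are set largely by that addition. The vehicle ratios of *Ltf*, on 2, 1 and 0 counts, depend on it too. The log2 ratio of *Ly6c2* to *Lyz2* averaged -7.91 at baseline, -8.27 with vehicle and -8.49 with NSC, with overlap throughout.

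**Figure D3:**
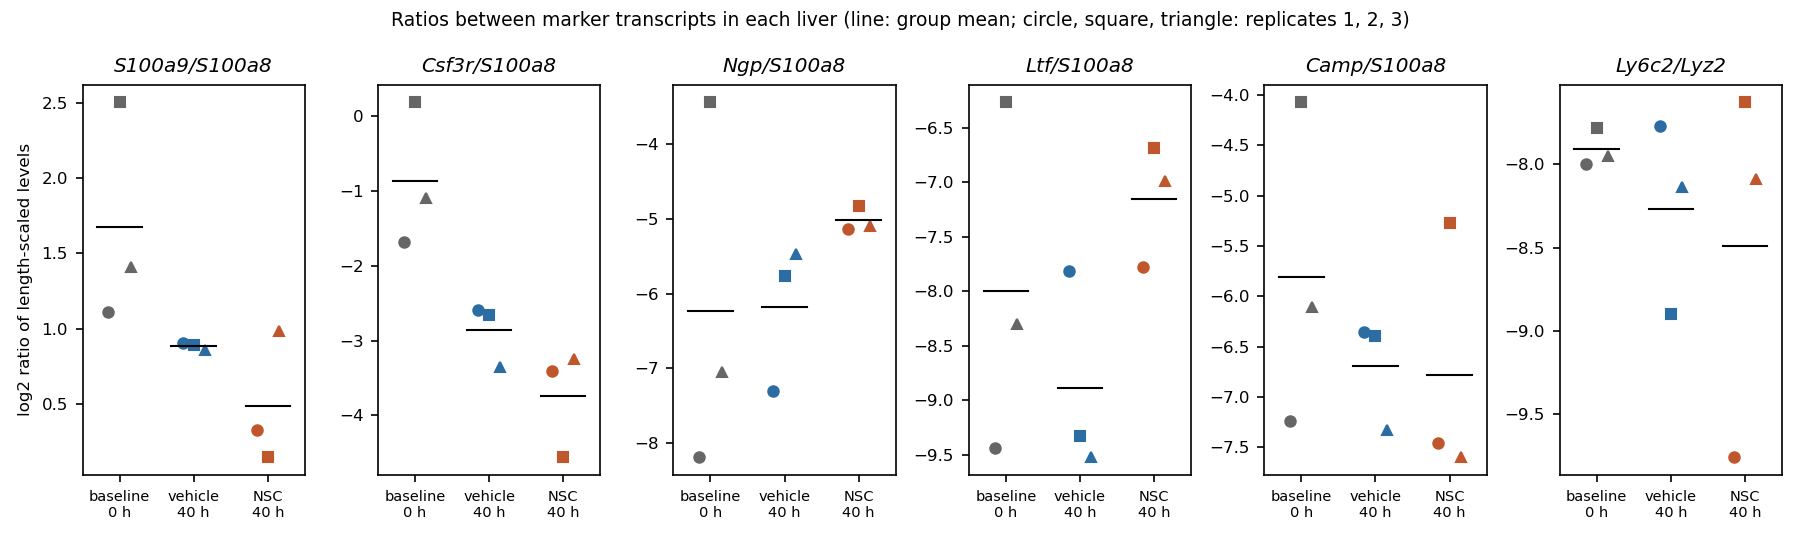
Log2 ratio of length-scaled levels for 6 pairs of marker transcripts in each liver, with 0.5 added to each count, one panel per pair and axes that differ between panels. Points are livers and lines are group means (n = 3). The *Csf3r* to *S100a8* ratio lies lower in all 6 remnants than at baseline. The *Ngp* and *Ltf* ratios lie higher in each NSC remnant than in each vehicle remnant, for *Ltf* narrowly in replicate 1, whereas the *Camp* ratios overlap.

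Over the 9 livers, the transcripts most like each marker were found from the Pearson r of log2 CPM among 12698 or 12699 genes with a mean of at least 1 CPM. These are descriptions, as the 9 points fall into 3 treatment groups and share library and depth. They depend on the measure, since the 5 genes with the highest Spearman rho shared with the Pearson lists 1 gene for *S100a8*, 0 for *Ngp*, 3 for *Csf3r*, 1 for *Lyz2* and 1 for *Ly6c2*. *S100a8* was most like *S100a9* (r = 0.98), followed by *Sgcb*, *Rell1*, *Antxr2* and *Eaf1* (0.96, 0.96, 0.96 and 0.95), and its r was 0.92 with *Retnlg*, 0.76 with *Lyz2* and 0.37 with *Csf3r*. *Csf3r* was most like *Slc44a2*, *Arid3a*, *Myo1f*, *Pxdn* and *Laptm5* (0.93, 0.93, 0.92, 0.91 and 0.90), of which *Myo1f* encodes a myosin of leukocytes and *Laptm5* a lysosomal protein of leukocytes. *Lyz2* was most like *Cd300a*, *Wnt9b*, *Stx3*, *Slc37a2* and *C1qb* (0.97, 0.96, 0.95, 0.95 and 0.95), of which *C1qb* encodes a complement subunit made by macrophages. *Ngp* was most like *Xpo4*, *Mpeg1*, *Rbm27*, *Rest* and *Abhd5* (0.98, 0.96, 0.96, 0.95 and 0.95), of which *Mpeg1* encodes the macrophage pore-forming protein perforin-2. *Ly6c2* had the weakest likenesses, with *Dyrk3*, *Dynlt1b*, *Otud1*, *Cyp3a16* and *Gm9762* (0.90, 0.87, 0.84, 0.83 and 0.81).

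The other genes of these cells and of their recruitment were read from 8 lists. Of 96 such genes 76 were tested, and 26 passed an adjusted p under 0.05 with vehicle against baseline, 25 with NSC against baseline and 0 between NSC and vehicle. Among all genes 23.7%, 34.7% and 0.0399% passed in either direction, and 12.7% and 18.2% rose against baseline with vehicle and NSC.

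Other granule genes rose in part, beside the 12.7% and 18.2% of all genes that rose with vehicle and NSC. Of 2 primary granule genes tested, 1 rose in both groups: *Prtn3*, which encodes proteinase 3, had 1.26 to 4.12 CPM at baseline, 28.2 to 65.3 CPM with vehicle and 10.2 to 40.1 CPM with NSC (log2 fold changes 3.99 and 3.34, adjusted p = 0.00552 and 0.00714, edgeR). *Mpo* and *Ctsg*, defining genes of the same granules that encode myeloperoxidase and cathepsin G, had at most 0.06 and 0.0679 CPM in any liver, and *Elane*, neutrophil elastase, at most 0.626 CPM. Of 9 secondary and tertiary granule genes tested other than the 3 markers, 3 rose in both groups and none fell, with list medians of 0.50 and 0.59 (log2). *Lcn2*, lipocalin 2, which hepatocytes also make in the acute phase response, rose by 4.16 and 3.92 on the log2 scale from 20.3 to 197 CPM at baseline to at least 747 CPM in every remnant. Without baseline replicate 2, its highest baseline value, these came to 5.94 and 5.70. *Chil3*, which also marks monocytes, rose by 4.85 and 4.31, the latter 2.80 without NSC replicate 1. *Mmp8*, the neutrophil collagenase, rose by 2.64 and 3.26. *Ly6g*, which encodes the antigen used to identify mouse neutrophils, had 0 to 0.244 CPM, with its highest value at baseline.

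Among genes of mature neutrophils other than the markers, 2 of 14 tested rose with vehicle and 1 with NSC, and none fell. These counts are near or below the 12.7% and 18.2% of all genes that rose. *Il1r2*, the decoy receptor for interleukin-1, rose with vehicle by 2.57 (log2, adjusted p = 0.0137, edgeR). The formyl peptide receptor gene *Fpr1* rose with NSC by 1.63 (SE 0.37, adjusted p = 0.00573, edgeR) from 0.611 to 1.01 CPM at baseline to 2.07 to 2.62 CPM, above every vehicle remnant, although the difference from vehicle of 1.02 did not pass (adjusted p = 0.166, edgeR). *Cxcr2*, the main neutrophil chemokine receptor, stood at log2 fold changes of 0.26 and 0.27 (adjusted p = 0.792 and 0.755, edgeR). *Wfdc21*, the most abundant gene of that list, stood at 0.01 and -0.01.

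Of 13 monocyte genes tested other than *Lyz2* and *Ly6c2*, 5 rose with vehicle and 5 with NSC, beside 12.7% and 18.2% of all genes. None fell, and the list medians were 1.08 and 0.40 (log2). *F13a1*, coagulation factor XIII A, rose by 4.41 with vehicle and 3.66 with NSC, *Vcan*, versican, by 4.17 and 2.71, and *Cx3cr1*, the fractalkine receptor, by 2.12 and 1.88. *Cd14*, the lipopolysaccharide co-receptor, rose with vehicle by 2.27, and *Ccr2*, the CCL2 receptor, rose with NSC by 1.94 (adjusted p = 0.0205, edgeR). The NSC values of several of these depended on NSC replicate 1. *Ccr2* had 6.09 CPM there against 1.56 and 1.45 CPM in the other 2 NSC remnants, *F13a1* had 3.99 against 0.577 and 0.274 CPM, and *Ccr2* and *Vcan* lost their NSC calls without it (log2 fold changes 0.93 and 1.71, adjusted p = 0.0777 and 0.0725, edgeR). Leaving it out also made *F13a1* lower with NSC than with vehicle, at a log2 fold change of -2.67 (adjusted p = 0.00423, edgeR), together with *Vcan* (-2.46), *Chil3* (-2.06), *Ccl7* (-2.84), *S100a6* (-1.62), *Icam1* (-0.83) and *Csf1* (-0.72).

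Of 13 ligands and cytokines tested that act on these cells, 5 rose with vehicle and 3 with NSC, beside 12.7% and 18.2% of all genes, and the NSC count is near that share. *Cxcl1* and *Cxcl2* encode ligands of CXCR2. *Cxcl1* had 8.88 to 42.0 CPM at baseline, 147 to 187 CPM with vehicle and 46.7 to 122 CPM with NSC, with log2 fold changes of 2.83 and 1.75 (adjusted p = 0.0123 and 0.0477, edgeR). *Cxcl2* rose with vehicle by 2.91 (adjusted p = 0.0041, edgeR) and stood at 0.69 with NSC (adjusted p = 0.436), below every vehicle remnant. The direct difference of -2.22 had an adjusted p of 0.0907, and of 0.0434 when every gene with at least 1 count was fitted. The monocyte attractants *Ccl2* and *Ccl7* rose in both groups, by 3.35 and 5.47 with vehicle and by 2.52 and 4.08 with NSC. *C3*, the complement component and the most abundant gene of the list, rose by 0.90 with vehicle (adjusted p = 0.0252, edgeR). *Csf3*, which encodes the ligand of the *Csf3r* product, had at most 0.0518 CPM in any liver, and *Csf2* and *Il17a* had no count in any library.

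On the endothelial side, *Icam1* rose in both groups by 2.01 and 1.35 and *Jam2* by 1.15 and 1.70, 2 of 9 tested in each group. Among all genes 12.7% rose with vehicle and 18.2% with NSC, and the NSC count is near that share. *F11r*, the most abundant of that list, stood at 0.26 and 0.27. Of 10 tested genes of calprotectin receptors and other S100 proteins, 5 rose in each group, and 2 fell with vehicle and 3 with NSC. In either direction 23.7% and 34.7% of all genes passed. *Tlr4*, a receptor for calprotectin, rose by 1.56 and 2.16. Among the other S100 genes, *S100a4*, *S100a6*, *S100a11* and *S100a10* rose in both groups and *S100a1* and *S100a13* fell in both. *S100a11* went from 3.63 to 4.55 CPM at baseline to 15.6 to 24.2 CPM in the remnants (log2 fold changes 2.23 and 2.12), with every remnant above every baseline specimen. *Ager*, which encodes another calprotectin receptor, RAGE, fell with NSC by 1.48. Of 9 myeloid transcription factor genes tested none rose, beside 12.7% and 18.2% of all genes. *Cebpa* fell by 1.55 with vehicle and by 1.32 with NSC, and *Cebpb* fell by 1.04 with NSC. *Cebpa* is also a main factor of hepatocytes, and its level of 48.2 FPKM over all livers was far above that of every marker but *Lyz2*.

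Some of these calls rested on single libraries. Without NSC replicate 1 the NSC values of *S100a6* (1.15), *Tlr4* (1.41) and *Jam2* (1.13) came under the fold threshold, and those of *F13a1* (1.74) and *Ccl7* (2.64) fell but stayed called. Other values grew without a baseline replicate: without replicate 1 those of *S100a4* came to 3.48 with vehicle and 3.43 with NSC and those of *Mmp8* to 3.95 and 4.57, without replicate 2 those of *Cxcl1* to 3.58 and 2.50, and without replicate 3 those of *Ccl7* to 6.36 and 4.96. Leaving out a baseline replicate ended the NSC calls of *F13a1* (3.52 to 3.84, replicate 1, 2 or 3), *Vcan* (2.70 and 2.38, replicate 1 or 2), *Ccr2* (1.73 and 1.78, replicate 2 or 3) and *Fpr1* (1.49, replicate 2). With vehicle it ended those of *F13a1* (4.27, replicate 3), *Cxcl1* (2.70, replicate 1), *Il1r2* (2.48, replicate 3) and *Mmp8* (2.45 and 2.10, replicate 2 or 3). Leaving out a vehicle remnant ended the vehicle calls of *Mmp8* (2.45 and 2.60, replicate 1 or 2), *Il1r2* (1.93, replicate 2) and *Cebpa* (-1.37, replicate 1). The vehicle call of *Tlr4* was lost without any 1 of the 6 libraries compared (1.34 to 1.75), and the NSC call of *Cxcl1* without every library but baseline replicate 2 (1.28 to 2.02).

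**Figure D4:**
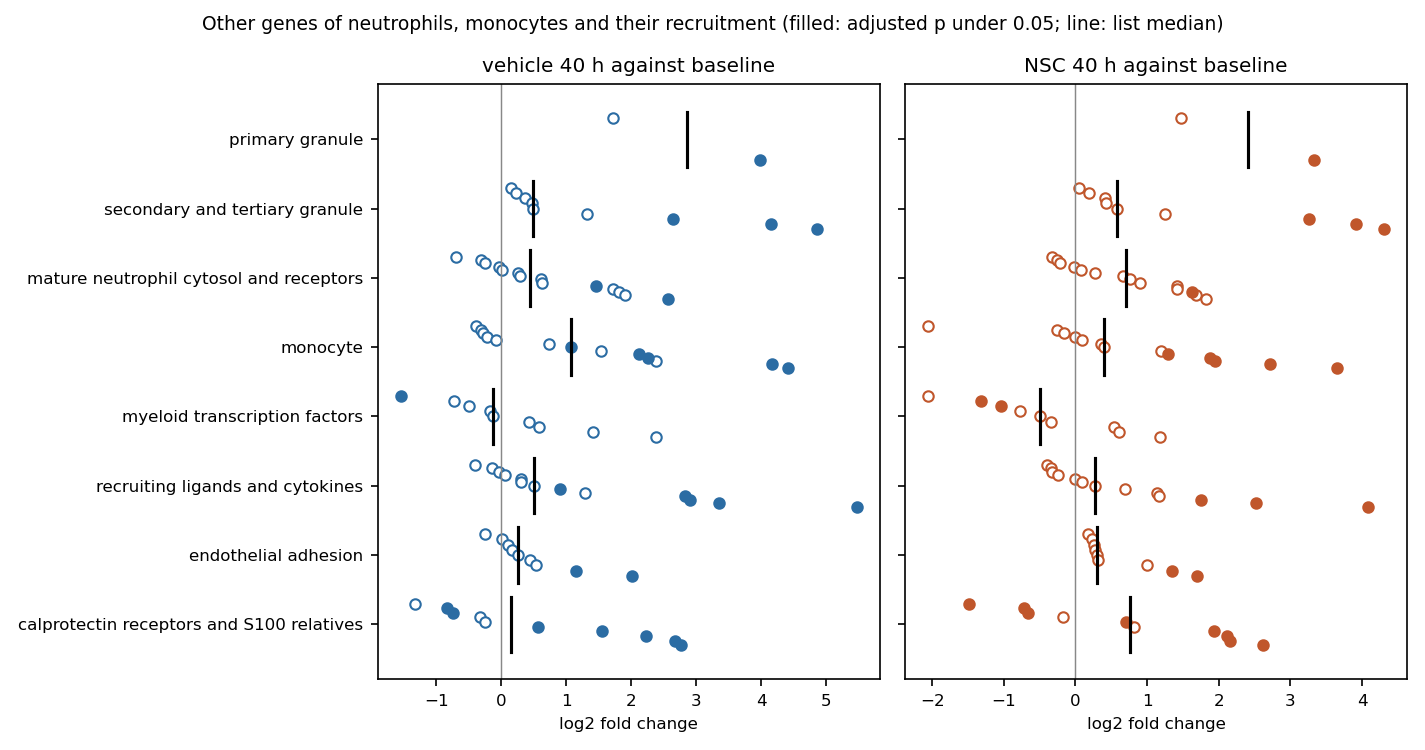
Log2 fold change against baseline of each tested gene on 8 lists of neutrophil, monocyte and recruitment genes, without the 9 markers, for vehicle (left) and NSC (right). Filled points passed an adjusted p of 0.05 in edgeR and black lines are list medians, beside a median of 0.01 over all genes tested. In both panels filled points past 2 on the log2 scale lie in the granule, monocyte, ligand and S100 lists. With vehicle, *Il1r2* of the mature neutrophil list and *Icam1* of the endothelial list lie past 2 as well.

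Transcripts of other cell types differed between the groups too, and their part in the marker values was not tested. Of 9 Kupffer cell genes, 1 rose with vehicle (*Marco*, by 3.39) and 4 with NSC (*Marco* by 4.10, *Timd4* by 1.48, *Cd5l* by 1.39 and *Vsig4* by 1.11). The 3 last stood higher in each NSC remnant than in each vehicle remnant, with adjusted p-values of 0.0849, 0.0965 and 0.0849 for *Timd4*, *Cd5l* and *Vsig4* in edgeR. Among all genes 22.5% did not overlap between the treatments, in either direction. Against baseline 12.7% of all genes rose with vehicle, near the Kupffer cell count, and 18.2% with NSC. The summed level of 10 T and NK cell genes went from 2.47 to 6.10 CPM at baseline to 1.10 to 1.76 CPM with vehicle and 2.34 to 3.40 CPM with NSC, and *Cd3g* fell by 2.46 with vehicle. The erythroid genes *Alas2* and *Klf1* fell in both groups, by 1.83 and 2.17 with vehicle and by 1.60 and 3.06 with NSC, whereas *Hbb-bs* stood at -0.25 and 0.12. *Alb*, the hepatocyte albumin gene, stood at -0.02 and -0.10, and *Tat*, a hepatocyte enzyme of tyrosine breakdown, fell with NSC by 1.93. The vehicle calls of *Cd3g* (-2.32 to -2.16 without baseline replicate 1 or 3 or vehicle replicate 1 or 3) and *Klf1* (-1.98 to -1.60 without baseline replicate 2 or vehicle replicate 1 or 3) were lost without single libraries, as was the NSC call of *Alas2* (-1.26 without NSC replicate 1). The vehicle value of *Cd3g* was -3.31 without vehicle replicate 2, and the NSC value of *Klf1* was -4.29 without NSC replicate 2.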

How the data were processed

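RNA-Seq libraries of 9 whole livers were stranded and prepared from polyadenylated RNA. Paired-end reads were aligned by the authors with STAR 2.6.1 in the MAP-RSeq pipeline and assigned to genes with featureCounts of Subread 1.5.1, and raw counts of each library were deposited without normalization or pooling. The deposited FPKM values were made by the authors from the same counts by length and library total, since recomputing them left a largest relative difference of 4.96e-10 above 1 FPKM. The labels and methods name the human build hg38, whereas the table holds mouse genes with GRCm38 coordinates.

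The counts were fitted with edgeR 4.0.16 in R 4.3.3 (TMM factors, filterByExpr, robust quasi-likelihood test, 1 fit of all 9 libraries, condition as the only term), with Benjamini-Hochberg adjustment over 15024 genes. The thresholds for a call (0.05 for the adjusted p, 1.5 for the log2 fold change) are the study's. The SE is the absolute log2 fold change divided by the square root of F. Values were tabulated in Python 3.11.15 with pandas 2.3.3, and plots drawn with matplotlib 3.10.9. Ratios used length-scaled counts with 0.5 added and exact 2-sided permutation tests (scipy 1.17.1), and counting intervals are exact 95% binomial ones. The fit was also run on counts simulated with its own dispersion estimates. That run cannot test the spread between mice, and its outcome is not given here. Duplicate libraries were checked: the chi-square per gene between libraries of 1 group was 22.9 to 140.

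The 9 markers, the 17 lists (162 of 163 genes found) and the naming rule were chosen with earlier results of these data known. The rule took the markers, each list gene called in any comparison or with an adjusted p under 0.05 in the direct one, the gene of highest mean FPKM in each list, *Ly6c1* and *Lyz1*, and the 5 genes most like each of 5 markers. The B cell list is not reported here. *Elane*, *Mpo*, *Ctsg*, *Ly6g*, *Cxcr2*, *Csf1*, *Csf2*, *Csf3*, *Il17a*, *Emr1*, *Ptprc*, *Vsig4*, *Timd4*, *Cd5l*, *S100a1*, *S100a10*, *S100a13*, *Ager*, *Cebpb* and *Nr4a1* were named after their values were seen. Replicates are separate samples by their labels, and the paper calls them biological replicates. The p-values measure the spread between these samples. Alternatives were RLE factors, library size only, DESeq2 1.42.0, a filter of at least 1 count in any library or of 10 counts in each, separate fits of each pair of groups, a block for the replicate number, no fold threshold, a prior count of 1, Spearman rho, and each library left out in turn. Those for the other pathway genes were chosen after seeing the data.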

Additional observations from a re-analysis of the deposited data

How the results depend on the processing

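Depth limits *Ngp*, *Camp*, *Ltf* and *Ly6c2*, whose 0 to 20 counts per library leave wide errors. Markers called higher than baseline were 1 with vehicle and 2 with NSC. With vehicle the count was 2 with DESeq2 (*S100a8* added) and 1 to 3 when each library was left out in turn, 3 without baseline replicate 1. With NSC it was 4 when every gene with at least 1 count was fitted (*Ngp* and *Ltf* added) and 2 to 4 when each library was left out, 4 without baseline replicate 1 (*S100a9* and *Ngp* added). Requiring at least 10 counts in every library gave 0 in both, since *S100a8* and *Retnlg* were then not tested. Between NSC and vehicle it was 0 in every fit run. Other pathway genes past the test were 17 with vehicle when 10 counts were required in every library, and 20 to 31 with vehicle and 20 to 29 with NSC when each library was left out. Between the treatments they were 4 with DESeq2 (*Cd36* higher, *Icam1*, *Nr4a1* and *C3* lower with NSC), 1 when every gene was fitted (*Cxcl2*), and 0 to 7 when each library was left out, 7 without NSC replicate 1. The causes were not tested, except that fewer or more genes were tested under the filters.

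Small fold changes turned sign. *Csf3r* with NSC against baseline was 0.054 with library size only, and *Ly6c2* with NSC against vehicle was -0.0032 when only those 2 groups were fitted. Leaving out each library gave *Csf3r* -0.36 to 0.45 with vehicle, -0.56 to 0.24 with NSC and -0.68 to 0.26 for NSC against vehicle, and *Ly6c2* -0.11 to 0.47, -0.0084 to 0.49 and -0.26 to 0.37 in the same order. For NSC against vehicle *Retnlg* ran from -0.020 to 0.86 and *Lyz2* from -0.16 to 0.55. The difference in the log2 ratio of *Ngp* to *S100a8* between vehicle and baseline was -0.47 with a prior count of 1, against 0.05, and -0.93 to 1.44 when each library was left out. That of *Camp* to *S100a8* between NSC and vehicle ran from -0.84 to 0.33, and that of *Ly6c2* to *Lyz2* from -1.01 to 0.052 for NSC against baseline and from -0.65 to 0.41 for NSC against vehicle.

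Residuals of same-numbered livers had r = -0.05 to 0.13, and those of livers with different numbers r = -0.12 to 0.07. These weak values do not settle whether the numbers mark pairs. The labels do not say that a number marks the same mouse, so the livers were treated as unpaired. The baseline is resected tissue of operated mice, so a baseline specimen and a remnant may share a mouse. With the replicate block the markers called were 1, 2 and 0, and other pathway genes past the test 27, 28 and 0, in vehicle against baseline, NSC against baseline and NSC against vehicle.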
